A study of Mus musculus with 16 samples.

Results

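Among 8 array profiles of mouse eWAT, as the labels call this white fat, 4 carried a high signal for albumin (Alb), the main plasma protein made by the liver, and 4 a lower one. The samples were chosen by the Alb value alone. A log2 value above 18 placed F1 2, F1 4, CT 3 and CT 4 in the high-albumin set, and a value of 18 or below placed F1 1, F1 3, CT 1 and CT 2 in the low-albumin set. The 4 high-albumin samples are 4 of the 8 eWAT profiles and 4 of the 16 profiles of the whole series, the other 8 being liver. Each set held 2 F1 and 2 CT samples. The member nearest the dividing value from above was CT 4 at 18.55, and the nearest from below was F1 1 at 16.95. Because Alb chose the samples, everything measured in the same arrays belongs to the contrast that the choice made, and differences between the sets are described here without a test.

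All mice were C57BL/6J males, 14 weeks old at dissection. F1 offspring had obese fathers, which had eaten a high-fat diet with 45% lipids for 12 weeks, beginning when they were 8 weeks old, before mating with control females. CT offspring had control fathers kept on chow, also mated with control females. RNA of both tissues came from frozen pieces extracted with the miRNeasy Mini Kit and treated with DNase, and 150 ng with an RNA integrity number above 8 was labelled per array. The sources do not tie samples to fathers or litters, so the p-values reported for F1 against CT measure only the spread between these samples.

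The labelled tissues matched their defining transcripts. The median level over the 51 genes of the 5 fat gene lists was 15.58 to 15.96 in the high-albumin samples and 15.74 to 16.13 in the low-albumin samples, against 8.73 to 9.52 in liver. Any pair of eWAT profiles correlated across all genes at r = 0.976 to 0.991. Correlation with the liver profiles was 0.781 to 0.815 for the high-albumin samples and 0.751 to 0.785 for the low-albumin samples. A pair of eWAT libraries, 1 on each side of the division, held transcripts of another organ. CT 4, a high-albumin sample, had the sperm protamine genes Prm1 at 11.56 and Prm2 at 11.40, against 2.47 to 4.72 in the other 7 samples. F1 1, a low-albumin sample, had the seminal vesicle secretory genes Svs4 at 14.01 and Svs5 at 14.51, against 2.31 to 4.55 elsewhere. Counts without both are given beside the results. Liver also held transcripts of another organ in at least 1 sample. There the exocrine pancreas genes Amy2a5 and Ctrl reached 17.69 and 13.90, against liver medians of 6.555 and 4.315.

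Hepatocytes secrete most plasma proteins, among them albumin, the apolipoproteins of circulating lipid particles, fibrinogen and the other clotting factors, and inhibitors of blood proteases. They also hold the urea cycle, bile acid synthesis and most cytochrome P450 enzymes, under transcription factors that include HNF4A and the HNF1 family. White adipocytes store triglyceride behind perilipin and release the hormones adiponectin and leptin. In a piece of tissue, fewer cells of a type and less RNA per cell cannot be told apart.

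The promoters of 3 hepatocyte genes that the results turn on are shown with that of adiponectin (Adipoq), which fat makes, because they differ in a short sequence that HNF1 factors are known to bind. Each line gives the 250 bases before the gene's start, 5′ to 3′ on the gene's strand, from RefSeq on assembly GRCm38.p6, with GTTAAT or its reverse complement ATTAAC in capitals.
Alb: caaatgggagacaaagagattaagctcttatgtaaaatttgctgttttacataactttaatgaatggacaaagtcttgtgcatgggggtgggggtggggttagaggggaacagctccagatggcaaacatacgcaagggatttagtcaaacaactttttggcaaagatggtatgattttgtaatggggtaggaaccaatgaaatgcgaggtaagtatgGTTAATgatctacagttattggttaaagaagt
Serpina1b: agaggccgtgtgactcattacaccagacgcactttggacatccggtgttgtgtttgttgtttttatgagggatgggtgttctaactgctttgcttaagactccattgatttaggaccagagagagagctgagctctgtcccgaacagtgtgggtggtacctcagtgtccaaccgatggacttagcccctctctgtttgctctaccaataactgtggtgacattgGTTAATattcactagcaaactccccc
Fgb: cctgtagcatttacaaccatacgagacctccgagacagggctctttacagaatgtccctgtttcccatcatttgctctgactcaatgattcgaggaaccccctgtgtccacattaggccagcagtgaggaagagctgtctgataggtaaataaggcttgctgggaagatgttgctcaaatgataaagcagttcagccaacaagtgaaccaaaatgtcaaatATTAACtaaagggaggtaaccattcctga
Adipoq: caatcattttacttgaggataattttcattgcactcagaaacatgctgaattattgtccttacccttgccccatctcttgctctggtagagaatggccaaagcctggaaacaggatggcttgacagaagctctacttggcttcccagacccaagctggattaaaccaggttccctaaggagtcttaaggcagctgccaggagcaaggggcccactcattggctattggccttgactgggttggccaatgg
The Alb window is chr5:90460620-90460869 on the plus strand, and its motif begins 32 bases before the start. The Serpina1b window is chr12:103738190-103738439 on the minus strand, with the motif at 26 bases, and the Fgb window is chr3:83049864-83050113 on the minus strand, with the motif at 29 bases. The Adipoq window, chr16:23146286-23146535 on the plus strand, holds no such letters. Among windows of this length, 6.43% of all 32851 RefSeq promoters held GTTAAT or ATTAAC on either strand. Of the 216 promoters that matched 178 of the genes described below as carried with albumin, 42 held it (19.4%), and of the 59 promoters that matched 42 fat genes, 3 did (5.08%). A TATA box, spelled TATAAA and read on either strand, stood in 12.4% of all promoters, in 22.2% of those of carried genes and in 5.08% of those of fat genes. The sequence CCAAT on either strand stood in 33.9% of all promoters, in 36.1% of those of carried genes and in 25.4% of those of fat genes. A match is a description of letters and not of binding.

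A gene was counted as carried higher when all 4 high-albumin samples lay above all 4 low-albumin samples and the medians differed by at least 2-fold, which is 1 on the log2 scale. Of 14777 genes bright enough to keep, 215 were carried higher (1.45%) and 13 were carried lower by the mirror rule (0.088%). Without F1 1 and CT 4 the counts were 361 and 38, and 209 of the 215 genes were shared. Leaving out any 1 sample gave 217 to 299 genes carried higher and 14 to 24 carried lower. With fewer samples the rule of no overlap is easier to meet, so these counts rise partly by construction. Genes already separated cannot come to overlap when samples are left out, so most sharing is built in as well. The hepatocyte lists held 182 genes on the array, of which 175 were bright enough. Of these, 114 were carried higher, none was carried lower, and 168 had a positive difference. In 116 of them the sets did not overlap whatever the size of the difference, as in 2.4% of all kept genes in that direction. Of the 51 fat genes, all bright enough, none was carried in either direction. The median difference was 2.32 over the kept hepatocyte genes and -0.03 over the fat genes, beside -0.04 over all kept genes. Neither list is independent of the division, since Alb and these genes were read from the same arrays.

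Albumin itself was 18.77, 19.07, 18.91 and 18.55 in F1 2, F1 4, CT 3 and CT 4, against 16.95, 16.65, 14.16 and 12.43 in F1 1, F1 3, CT 1 and CT 2. These orders of samples are kept for every gene below. All 8 liver samples stood at 19.93, the top of the scale, so the distance between liver and fat is compressed for Alb. The high-albumin samples covered 0.52 on the log2 scale and the low-albumin samples 4.52, so CT 2 lay farther from F1 1 than F1 1 lay from any high-albumin sample.

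Of the other plasma carriers made by hepatocytes, several stood apart between the sets. Ttr, which carries thyroid hormone and retinol-binding protein, was 14.04, 15.52, 14.09 and 14.03 in the high-albumin samples, against 11.63, 11.29, 8.73 and 7.65 in the low-albumin samples. Ahsg, the calcium-binding glycoprotein fetuin-A, was 15.50, 16.28, 14.93 and 15.00 in the high set, against 12.74, 12.66, 9.13 and 7.95 in the low set. In both genes the sets did not overlap, F1 4 was highest and CT 2 lowest. Hrg, a histidine-rich plasma glycoprotein, differed by 4.94, Ambp, the precursor of alpha-1-microglobulin and bikunin, by 4.56, and Apoh by 4.18. Of the 19 plasma carriers kept, 11 were carried higher and 8 were within 0.5 of equal medians.

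Those 8 included genes near the top of the scale in liver. Trf, the iron carrier transferrin, was 18.64, 18.54, 18.36 and 18.41 in the high-albumin samples, against 18.71, 18.60, 18.29 and 18.27 in the low-albumin samples, with a liver median of 19.93. Selenop, the selenium carrier, was 19.07, 19.01, 19.13 and 19.17 in the high set and 18.83, 19.04, 19.09 and 19.26 in the low set. Rbp4, Cp (ceruloplasmin), Igf1 and Orm1 likewise overlapped between the sets, with differences of 0.30, 0.01, 0.03 and -0.21. These genes had high levels in every eWAT sample, including those with the least albumin.

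Among 11 apolipoproteins and lipoprotein assembly genes, 9 were carried higher. Apoa1, the main protein of high-density lipoprotein, was 15.14, 15.99, 14.51 and 14.50 in the high-albumin samples, against 12.75, 11.91, 8.66 and 7.17 in the low-albumin samples. Apob, the structural protein of very-low-density lipoprotein, was 14.31, 15.12, 14.37 and 13.84 in the high set, against 10.58, 10.81, 8.23 and 6.87 in the low set. Apoc3, an inhibitor of lipoprotein lipase, was 9.55, 10.94, 9.37 and 8.84, against 6.79, 7.71, 6.25 and 6.98. The sets were apart in all 3 genes, and CT 1 and CT 2 were the lowest samples for Apoa1 and Apob but not for Apoc3, where F1 1 lay below CT 2. Apoa4, which enterocytes also make, was 6.85, 11.54, 8.02 and 7.49 in the high set and 5.78, 5.30, 4.73 and 5.50 in the low set. The sets were apart, and F1 4 stood well above the other high-albumin samples. The exceptions were Apoe, which fat macrophages and adipocytes also make and which lay between 19.85 and 19.93 in all 8 samples, and Apoc1. Apoc1 was 12.44, 12.78, 11.39 and 11.04 in the high set and 12.28, 11.49, 9.82 and 9.81 in the low set, with all 4 F1 samples above all 4 CT samples, as in 2.91% of all kept genes.

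**Figure D1:**
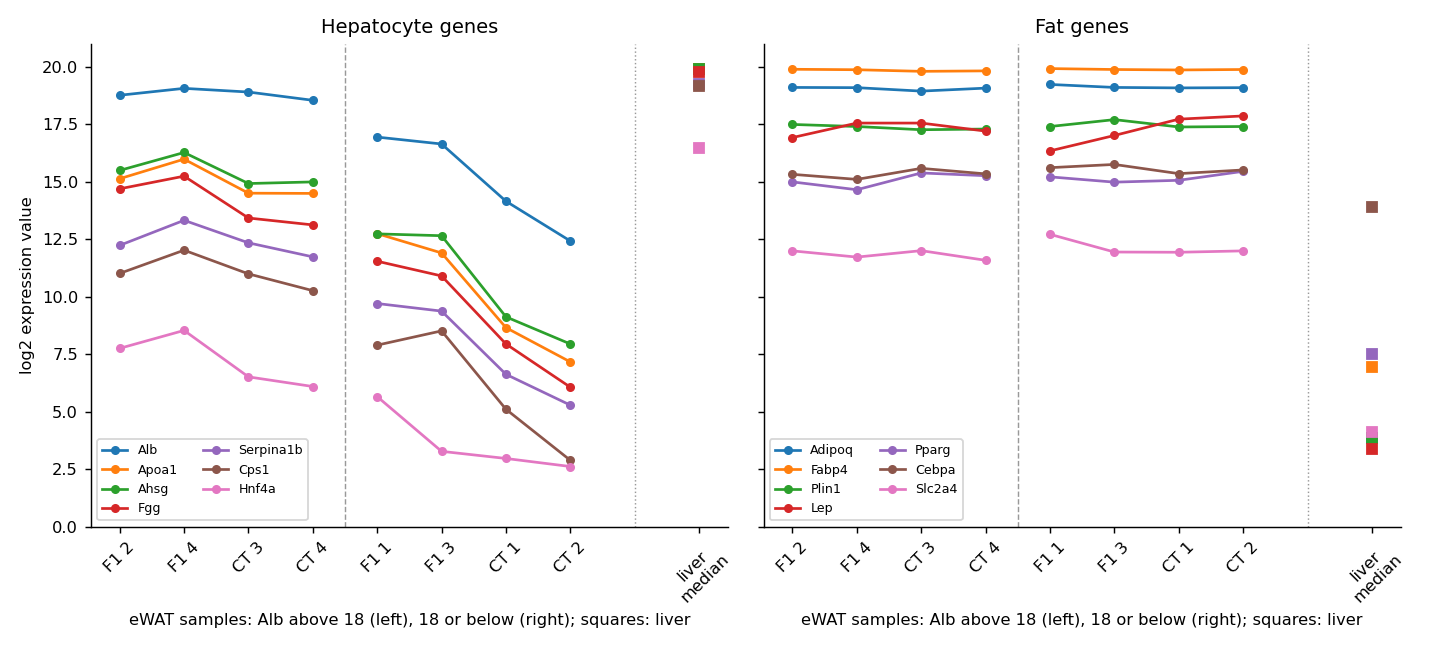
Log2 expression values of 7 hepatocyte genes (left panel) and 7 fat genes (right panel) in the 8 eWAT samples, high-albumin samples left of the dashed line and low-albumin samples right of it, with the liver median of each gene as a square. The hepatocyte genes are all lower right of the dashed line, most of them lowest in CT 1 and CT 2 (Alb 14.16 and 12.43), while the fat genes show no such step, with Adipoq between 18.95 and 19.24.

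The protease inhibitors and acute phase proteins had 15 of 20 kept genes carried higher, with a list median of 3.37. Pzp, a broad protease inhibitor of plasma, had the largest difference of all genes, 5.90. It was 13.58, 14.13, 13.16 and 12.52 in the high-albumin samples, against 9.79, 9.39, 5.55 and 5.10 in the low-albumin samples. Serpina1b, 1 of the mouse alpha-1-antitrypsin genes, was 12.24, 13.33, 12.35 and 11.74 in the high set, against 9.71, 9.38, 6.63 and 5.29 in the low set. All 5 Serpina1 genes on the array were carried, by 3.70 to 4.36, but they are near-identical copies and their probe sets may share signal. Hp, the haemoglobin-binding haptoglobin, was 19.45, 19.19, 19.43 and 19.23 in the high set and 18.90, 19.34, 19.51 and 19.32 in the low set. Its medians were equal to within 0.01, and the acute phase gene Serpina3n differed by 0.03. Saa1 and Saa2, the inducible serum amyloid genes, had another order of samples. Saa2 was 5.16, 7.79, 2.69 and 2.71 in the high set and 3.27, 7.28, 3.95 and 3.34 in the low set, so F1 4 and F1 3 were high and the sets overlapped, whereas Saa4, the constitutive member, was carried by 4.91.

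In the clotting system 12 of 14 genes were carried higher. Fgg, the fibrinogen gamma chain, was 14.70, 15.25, 13.43 and 13.13 in the high-albumin samples, against 11.55, 10.91, 7.95 and 6.07 in the low-albumin samples. Fgb, the beta chain, was 12.56, 13.08, 11.66 and 11.25 in the high set, against 10.07, 9.10, 6.89 and 7.09 in the low set. Fga, the alpha chain, differed by 4.74, F2 (prothrombin) by 4.13 and Plg (plasminogen) by 4.12. The 2 genes that overlapped were F7 and F11, and both had positive differences. All 3 fibrinogen chains were higher in F1 2 and F1 4 than in CT 3 and CT 4.

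Complement genes were carried less evenly, 5 of 14. Masp2, a protease of the lectin pathway, differed by 3.62, C4bp, an inhibitor of the classical pathway, by 3.47, and C8a, a chain of the membrane attack complex, by 2.31. C4b was 15.34, 15.86, 15.41 and 15.29 in the high-albumin samples and 14.68, 15.47, 15.68 and 15.21 in the low-albumin samples, and Cfb (factor B) differed by 0.07. Both are also made by cells outside the liver, and both overlapped between the sets.

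The major urinary proteins, pheromone carriers that male mouse liver makes in bulk, had 4 of 8 genes carried higher. Mup20 was 13.90, 15.19, 13.06 and 13.48 in the high-albumin samples, against 11.66, 11.76, 8.80 and 6.93 in the low-albumin samples. Mup2 was 19.36, 19.73, 17.14 and 18 in the high set and 16.69, 17.70, 13.87 and 11.88 in the low set, where F1 3 exceeded CT 3. For Mup19, which showed the same crossing, the difference was 3.29. The Mup genes are close copies of each other, so their separate values are uncertain.

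Of 32 drug and steroid enzymes, 20 were carried higher. Cyp3a11, a cytochrome P450 of drug and steroid hydroxylation, was 11.44, 12.89, 10.83 and 11.13 in the high-albumin samples, against 8.41, 8.11, 6.65 and 4.46 in the low-albumin samples. The carboxylesterases Ces3a and Ces1c differed by 4.62 and 4.23. Cyp2e1, the ethanol-oxidising P450, was 18.43, 18.17, 17.47 and 17.42 in the high set and 18.68, 17.88, 17.54 and 17.04 in the low set, a difference of 0.11 with overlapping sets. Cyp7a1, the rate-limiting enzyme of bile acid synthesis, was 6.37, 8.15, 6.46 and 6.55 in the high set and 6.11, 5.43, 6.57 and 4.89 in the low set, and only F1 4 stood clear. Cyp2f2, a P450 of airway and liver, was 13.23, 13.10, 12.06 and 11.80, against 14.85, 11.20, 8.43 and 7.98. Its highest value lay in F1 1, the sample with seminal vesicle transcripts, and without that sample the sets were apart. Whether that tissue gave the signal was not tested.

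Among 32 metabolic enzymes of hepatocytes, 19 were carried higher. Cps1, the entry enzyme of the urea cycle, was 11.02, 12.03, 11 and 10.27 in the high-albumin samples, against 7.90, 8.52, 5.11 and 2.89 in the low-albumin samples. G6pc, which releases glucose from glucose-6-phosphate, was 8.79, 10.60, 10.07 and 10.13 in the high set, against 5.36, 6.09, 5.61 and 5.74 in the low set. Unlike Alb, G6pc was level within the low set and lowest of the high set in F1 2. Tat, a tyrosine-degrading enzyme, was 10.19, 11.10, 11.55 and 11.17, against 7.79, 8.12, 5.74 and 3.57, and had its highest value in CT 3. Fabp1, the fatty acid-binding protein of liver and intestine, was 10.80, 12.47, 10.55 and 9.94, against 7.93, 8.29, 6.40 and 5.68. Cdo1, a cysteine-degrading enzyme, and Fah, a tyrosine-degrading one, had eWAT levels of 16.86 to 17.53 and 13.45 to 14.20 and differed by -0.19 and 0.20.

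Of the 9 kept transcription factors of hepatocytes, 3 were carried higher, namely Hnf4a, Nr1i3 and Creb3l3. Hnf4a, a nuclear receptor that directs the hepatocyte programme, was 7.76, 8.54, 6.52 and 6.10 in the high-albumin samples, against 5.66, 3.28, 2.97 and 2.62 in the low-albumin samples. F1 3, CT 1 and CT 2 lay under 3.47, the value below which a gene's mean was treated as too dim, while F1 1 did not. The other 6 kept factors had positive differences of 0.14 to 1.48 and overlapped. Foxa1, Foxa2 and Foxa3 were too dim in eWAT to keep, with medians of 9.43, 10.41 and 10.56 in liver. All 16 hepatocyte transporters and receptors were carried, with a median difference of 1.89. Slc10a1, the bile salt importer, was 9.42, 10.40, 8.86 and 9.06 in the high set, against 6.00, 7.43, 3.84 and 3.42 in the low set. Hamp, the iron-regulating hormone hepcidin, was 7.73, 8.05, 7.65 and 7.78, against 6.75, 6.30, 5.35 and 4.27.

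Markers of the liver's other cells were dim. Vsig4 and Cd5l, which Kupffer cells and other tissue macrophages make, were carried by 1.06 and 1.20. Cd5l was 5.13, 5.85, 4.81 and 6.83 in the high-albumin samples and 4.80, 4.23, 4.24 and 4.34 in the low-albumin samples, so CT 3 was barely above F1 1. Clec4f, a defining Kupffer cell gene with a liver median of 10.12, stayed at 2.61 to 4.0 in the high set and 2.49 to 3.27 in the low set, too dim to keep. The sinusoidal endothelial gene Stab2 was too dim as well. The other 7 kept genes of this list were not carried.

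Outside the hepatocyte lists, 101 further genes were carried higher, so the hepatocyte lists held 114 of the 215 (53.0%). They included Elovl2, an elongase of polyunsaturated fatty acids, at 9.54, 10.87, 10.18 and 10.24 in the high-albumin samples, against 6.41, 6.22, 4.18 and 4.12 in the low-albumin samples. Pigr, the transporter of polymeric immunoglobulin, was 10.55, 11.26, 10.97 and 9.94 in the high set, against 7.23, 6.51, 5.11 and 2.81 in the low set. Elovl3, an elongase listed here for brown fat and with a liver median of 17.36, differed by 4.59. Brown fat's defining gene Ucp1 was at 2.14 to 2.74 in the high set and 2.01 to 2.38 in the low set, too dim to keep. Solute carriers (Slc38a3, Slc27a2, Slc22a30), the acyl-CoA synthetase Acsm1, Vtn (vitronectin) and Crp were also among the 101.

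Likeness to Alb was measured as Pearson's r over the 8 eWAT samples, all on the same arrays. The 10 nearest genes were Hamp (0.993), Serpina1a (0.993), Cps1 (0.991), Apoa1 (0.991), Ahsg (0.990), Serpinc1 (0.990), Serpina1b (0.990), Slc38a4 (0.989), Mug1 (0.988) and Cyp2c23 (0.987). The r describes 8 points that fall into groups by the dividing rule, and it is given without a p. Of these genes, all but Cyp2c23 stood in the hepatocyte lists, and each had a liver median above that of the low-albumin fat samples.

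**Figure D2:**
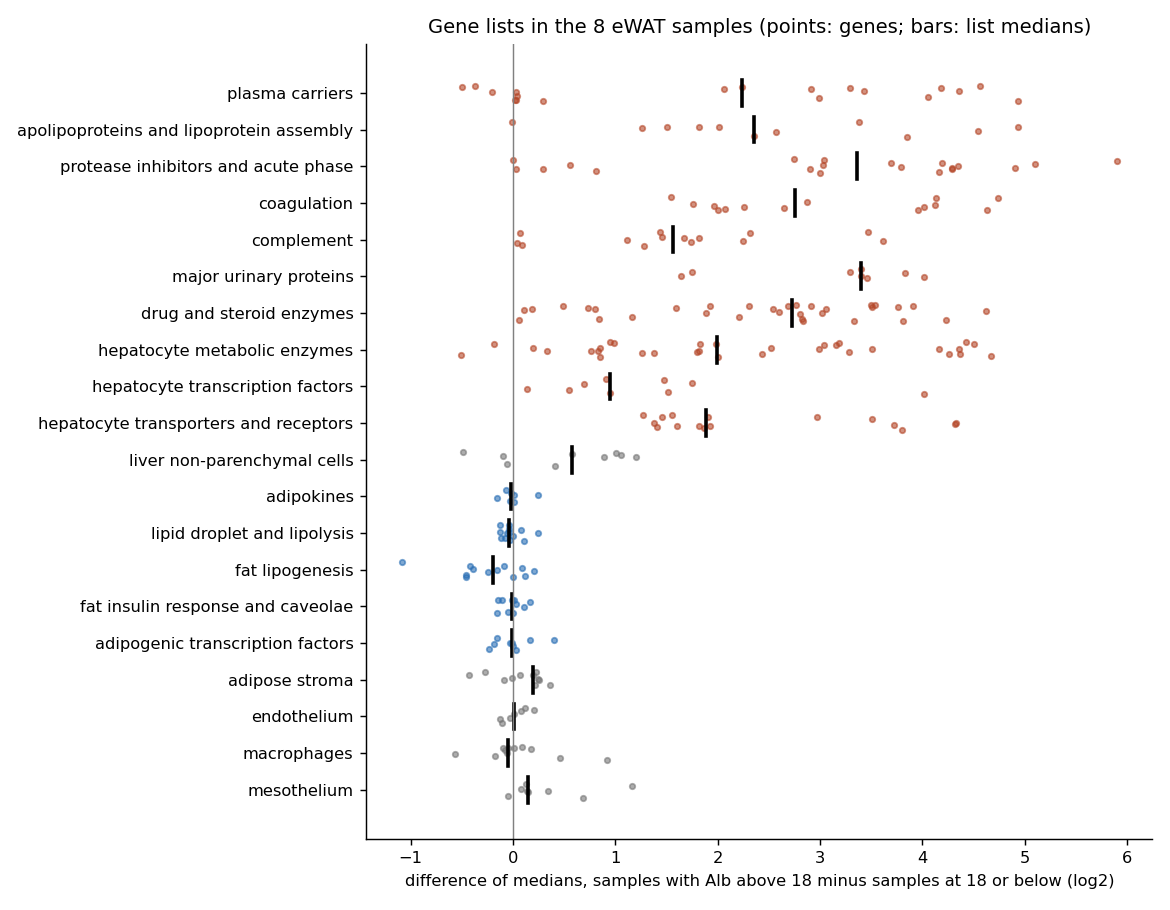
Difference of medians for each kept gene (points) and list median (bars), high-albumin minus low-albumin eWAT samples on the log2 scale; hepatocyte lists are red, fat lists blue and other cell types grey. The 10 hepatocyte lists have medians between 0.95 and 3.40, and the 5 fat lists between -0.20 and -0.005.

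Nearly all carried genes were higher in liver than in low-albumin fat. Of the 215 genes carried higher, 210 (97.7%) had a liver median at least 16-fold (4 on the log2 scale) above the median of the low-albumin fat samples, whereas 573 of all 14777 kept genes did (3.88%). The 3 carried genes that were not higher in liver were Cep126, Ctnna3 and Ptprcap. The median excess of liver over low-albumin fat was 10.46 for the carried genes and -0.88 for all kept genes. This excess and the difference within fat both use the low-albumin samples, so part of their relation is built in. The filter on dim genes adds to it, because it uses the mean of all 8 eWAT samples and a gene dim in the low-albumin samples stays only where the high-albumin samples lift it. The median of an array was 6.34 to 6.56 for eWAT, against 5.21 to 5.24 for liver, and no source used here says whether the tissues were normalized together.

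Binned by liver excess, the share of carried genes was 3.41% of 205 genes with an excess of 4 to 6 and 11.8% of 102 genes at 6 to 8. It was 51.6% of 126 genes at 8 to 10 and 90.0% of 140 genes at 10 or more. Without the filter, an alternative chosen after seeing the data, the shares at 8 to 10 and at 10 or more were 48.9% of 137 genes and 90.0% of 140. Below 4, 3 genes in the bin from -2 to 0 and 2 in the bin from 0 to 2 were carried. The median difference within fat was -0.07 for the 1111 genes that were lowest in liver relative to fat, 0.13 at an excess of 2 to 4, and 3.12 at 10 or more. Of the 14 genes with an excess of 10 or more that were not carried, Pipox, A1cf and Pon1 had the largest differences, 4.41, 3.42 and 3.33, and the sets overlapped in each.

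**Figure D3:**
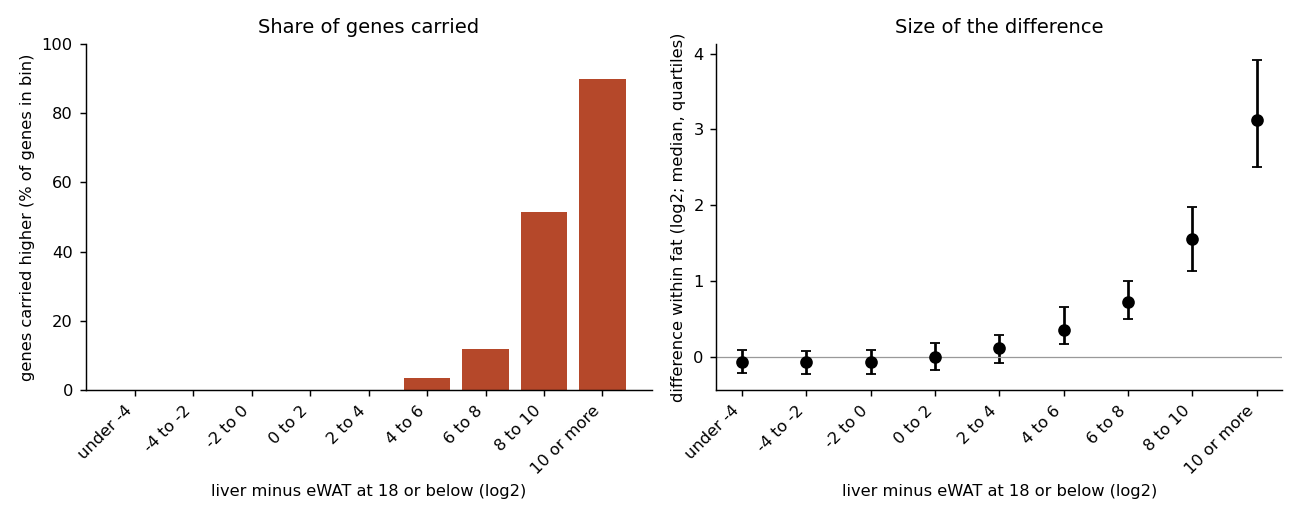
Kept genes binned by the liver median minus the median of the low-albumin eWAT samples (log2); bars show the percentage of genes in each bin carried higher, and points the median difference between high- and low-albumin samples with its quartiles. The share carried is 3.41% in the bin from 4 to 6 and 90.0% in the bin of 10 or more.

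The same division ran through the hepatocyte lists. In 24 of the 175 kept members the liver stood less than 16-fold above low-albumin fat, and none of the 24 was carried. Their median difference was 0.04, and 20 of them had a level of 10 or more in low-albumin fat, as Trf, Hp, Cyp2e1, Apoe and Selenop did. In the other 151 members 114 were carried (75.5%), with a median difference of 2.80, and the remaining 37 all had positive differences.

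**Figure D4:**
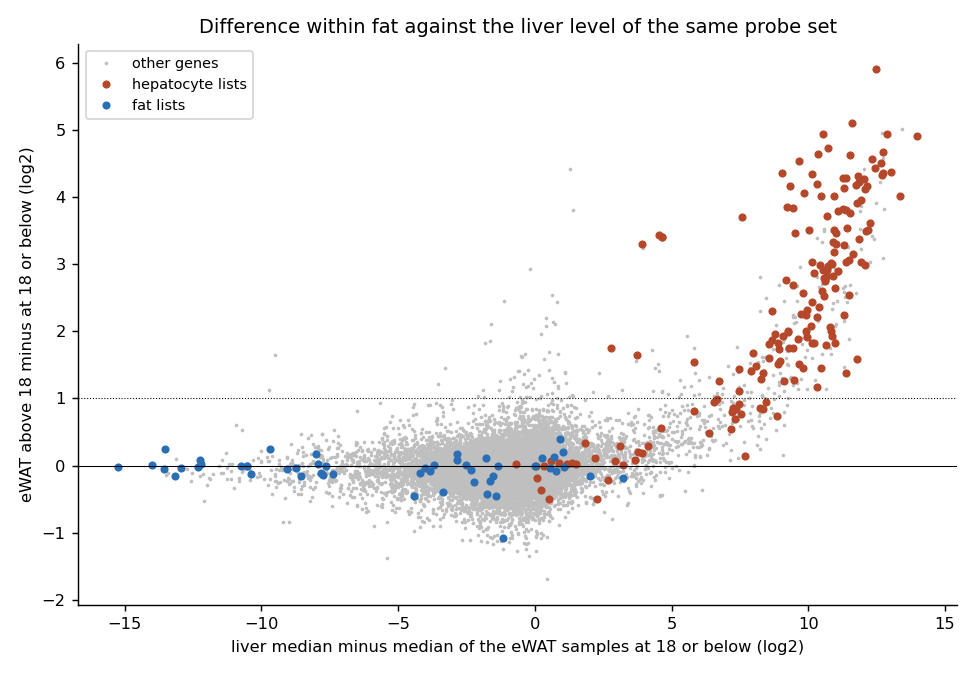
Each point is a kept gene, with the liver median minus the low-albumin eWAT median on the horizontal axis and the high- minus low-albumin difference in eWAT on the vertical axis, both log2; the dotted line marks a 2-fold difference. Hepatocyte genes (red) with little liver excess lie near 0 and those with an excess above 10 mostly lie above 2, while the 51 fat genes (blue) lie between -1.09 and 0.40.

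On the linear scale, the signal of most hepatocyte genes above the low-albumin median was a small part of the liver signal. Alb itself was an exception, at 40.4% in F1 2, 50.8% in F1 4, 45.0% in CT 3 and 34.1% in CT 4. Mup9 was another, at 51.9, 69.2, 11.8 and 27.7% in the same order. Both had a liver median of 19.93, the top of the scale. Members that were level between the sets, such as Hp and Trf, gave negative values in some samples. The median over the 175 genes was 0.479% in F1 2, 1.15% in F1 4, 0.362% in CT 3 and 0.251% in CT 4. The quartiles ran from 0.654 to 2.51% in F1 4 and from 0.118 to 0.467% in CT 4. For the 135 genes with a liver median under 19 the medians were 0.414, 0.935, 0.319 and 0.235%. For the 40 genes at 19 or more, where the scale compresses the liver value, they were 1.32, 2.04, 0.805 and 0.535%. For the 9 transcription factors they were 0.375, 0.678, 0.382 and 0.152%. F1 4 had the highest percentage in each of these sets of genes. The percentages are on the scale of the deposited values and are not a share of cells or RNA.

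Most carried genes shared their highest sample and their lowest sample. The rule itself puts the highest in the high-albumin set and the lowest in the low-albumin set. F1 4 was the highest sample for 190 of the 215 genes. CT 2 was the lowest for 127 and CT 1 for 62, while F1 1 and F1 3 were lowest for 15 and 11. The median level of the carried genes was 7.94, 9.07, 7.81 and 7.46 in the high-albumin samples and 6.00, 5.99, 4.79 and 4.47 in the low-albumin samples. Among the carried genes, 149 (69.3%) had both CT 1 and CT 2 below both F1 1 and F1 3, and 20.7% of all kept genes did. The difference between the sets was at least 1 within F1 and within CT separately for 195 of the 215 genes, and for 271 of all 14777 kept genes. For the 215 genes the medians were 2.53 within F1 and 2.87 within CT. The rule that chose these genes makes both differences positive, so the 195 are no separate support.

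The fat genes differed little between the sets. Adipoq, the hormone adiponectin, was 19.11, 19.10, 18.95 and 19.08 in the high-albumin samples and 19.24, 19.11, 19.09 and 19.10 in the low-albumin samples. Lep, the hormone leptin, was 16.93, 17.56, 17.56 and 17.21 in the high set and 16.35, 17.02, 17.73 and 17.87 in the low set, with equal medians to within 0.01. Both genes overlapped between the sets, and the lowest Lep value was in F1 1. Retn (resistin) differed by -0.16 and Nnat (neuronatin) by 0.25.

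Genes of the lipid droplet were as level. Plin1, the perilipin that coats the droplet, was 17.50, 17.41, 17.27 and 17.30 in the high-albumin samples and 17.41, 17.71, 17.39 and 17.41 in the low-albumin samples. Lipe, the hormone-sensitive lipase, was 17.85, 17.76, 17.84 and 17.80 in the high set and 17.97, 18.03, 17.82 and 17.93 in the low set. Pnpla2, the first triglyceride lipase, differed by -0.13, and Fabp4, the fatty acid-binding protein of adipocytes, lay between 19.81 and 19.93 in all 8 samples. Values this near 19.93 leave little room for a difference to show. The sets overlapped in all 13 genes of this list, which differed by -0.13 to 0.24.

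Lipogenic enzymes varied most among the fat lists. Acly, which makes cytosolic acetyl-CoA, was 15.20, 14.14, 15.50 and 14.77 in the high-albumin samples and 16.66, 15.25, 15.60 and 16.54 in the low-albumin samples. It differed by -1.09 and was the single fat gene outside 0.5 in either direction, though CT 3 lay above F1 3. Fasn, the fatty acid synthase, was 17.60, 16.76, 17.90 and 17.41 in the high set and 18.42, 17.75, 17.76 and 18.04 in the low set. F1 4 had the lowest value of both genes and F1 1 the highest. Me1, which supplies NADPH, differed by -0.42, and Acaca, the acetyl-CoA carboxylase, by 0.09. The list median was -0.20, and none of its 12 genes was carried.

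Insulin response and adipogenic control genes stayed within 0.5. Slc2a4, the insulin-sensitive glucose transporter, was 12.00, 11.73, 12.01 and 11.59 in the high-albumin samples and 12.72, 11.95, 11.94 and 12.00 in the low-albumin samples. Pparg, the nuclear receptor of adipogenesis, was 15.00, 14.66, 15.39 and 15.27 in the high set and 15.22, 14.99, 15.07 and 15.46 in the low set. Cebpa differed by -0.23, Insr, the insulin receptor, by 0.11, and Cebpb, an early adipogenic factor, had the largest difference of its list at 0.40. In all, 50 of the 51 fat genes lay within 0.5, beside 89.1% of all kept genes. The range over the 8 samples had a median of 0.71 for the fat genes, 4.72 for the hepatocyte genes and 1.0 for all kept genes.

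Other cells of fat tissue gave list medians of 0.20 for stroma, 0.01 for endothelium, -0.05 for macrophages and 0.14 for mesothelium, and none of their genes was carried. Mrc1, the macrophage mannose receptor, was 12.75, 12.67, 12.75 and 12.65 in the high-albumin samples, against 13.01, 13.14, 13.41 and 13.61 in the low-albumin samples. It was lower in every high-albumin sample, by 0.57 between medians, and so fell short of the 2-fold rule. The other macrophage genes overlapped, among them Csf1r and C1qa. In the lists for male tract, germ cells, exocrine pancreas, small intestine, skeletal muscle, brown fat, kidney, blood cells and immediate-early response, no gene was carried except Apoa4 and Elovl3, described above. Of all kept genes, 1.96% were lower without overlap, as Mrc1 was. The 13 genes carried lower were mostly dim, 11 of them with no value of 7 or more. The largest were Lrtm1 (-1.70), Polrmt (-1.25) and Tnfsf14 (-1.17), and none belonged to a fat list.

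F1 against CT is the study's own comparison in fat, and the Alb rule, with 2 samples of each group on each side, did not use it. In limma with Benjamini-Hochberg adjustment no gene of 14777 was called at an adjusted p under 0.05 (0%). At an unadjusted p under 0.05, 735 genes were higher in F1 (4.97%) and 742 lower (5.02%). The hepatocyte genes leaned to F1. Of the 175, 163 (93.1%) had a higher mean in F1, beside 49.7% of all kept genes, and their median difference was 1.18, F1 minus CT. Many of the 175 rose and fell together over the same 8 samples. The 163 are therefore not separate observations, and the lean rests on 4 samples against 4. For the fat genes the median was 0.08, with 37 of 51 higher in F1. Single samples weighed on the hepatocyte median, which was 0.676 without F1 4, 0.683 without CT 2 and 0.75 without CT 1, and 1.99 without both F1 1 and CT 4.

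No hepatocyte gene passed the test. An unadjusted p under 0.05 was found for 15 of the 175 (8.57%), all higher in F1. Of all kept genes, 4.97% were higher and 5.02% lower at that p. In 6 of the 175 all F1 samples lay above all CT samples and in 1 below, beside 2.91% and 3.01% of all kept genes. Alb averaged 1.85 ± 1.39 higher in F1 (SE, 4 samples each; limma adjusted p = 0.679). For Apoa1 the difference was 2.74 ± 1.73 (adjusted p = 0.624), and for Hnf4a it was 1.76 ± 1.26 (limma adjusted p = 0.664). Without 1 sample, the Alb difference was 0.65 without CT 2 to 2.81 without CT 3, also 1.23 without CT 1 and 2.69 without CT 4, and it was 2.997 without both F1 1 and CT 4. That of Apoa1 was 1.39 without CT 2 to 3.84 without CT 3, and that of Hnf4a 1.01 without F1 4 to 2.77 without F1 3. Each group held high- and low-albumin samples, and the standard errors include that spread. Among the low-albumin samples, F1 1 and F1 3 exceeded CT 1 and CT 2 in Alb by at least 2.49 on the log2 scale, whereas among the high-albumin samples F1 2 and F1 4 lay on either side of CT 3. Cyp2e1, which did not follow albumin, differed by 0.92 ± 0.21 and Apoc1 by 1.73 ± 0.42 (both limma adjusted p = 0.362). Among fat genes, Adipor2, an adiponectin receptor, differed by 0.80 ± 0.17 (limma adjusted p = 0.362) and Lep by -0.63 ± 0.26 (adjusted p = 0.471).

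The fit was repeated with albumin as a covariate. Alb chose the samples and was read from the same arrays, so these fits are a description. With the Alb division as a covariate the median difference stayed at 1.18 because the division is balanced. The typical residual SD of the hepatocyte genes was 0.635, against 1.63 without the covariate, and that of the fat genes was 0.219, against 0.207. Genes that follow Alb had to lose spread here, since the division was made by Alb, and no gene was called. An unadjusted limma p under 0.05 was found for 114 of the 175 hepatocyte genes (65.1%), all higher in F1. Of all 14777 kept genes, 935 were higher and 749 lower at that p. The lost spread lowers these p-values, so they too are only a description. With the Alb value itself as a covariate the hepatocyte median was 0.11, 111 of 175 were higher in F1 (63.4%), beside 51.4% of all kept genes, and the residual SD was 0.701. The fat median was then 0.14, and again no gene was called. In that fit 22 hepatocyte genes (12.6%) had an unadjusted limma p under 0.05, 18 of them higher in F1, beside 9.83% of all kept genes.

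**Figure D5:**
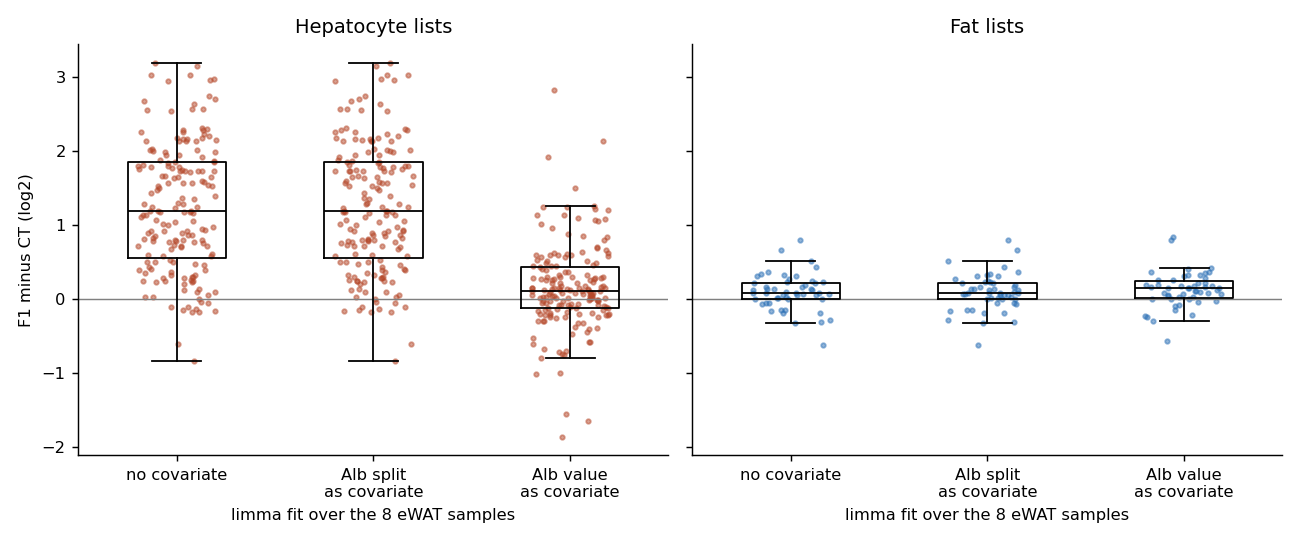
F1 minus CT (log2) for each of the 175 hepatocyte genes (left) and 51 fat genes (right) in 3 limma fits over the 8 eWAT samples; boxes show the median and quartiles, and whiskers the range without outlying genes. The hepatocyte median is 1.18 with no covariate and with the Alb division, and 0.11 with the Alb value, while the fat medians are 0.08, 0.08 and 0.14.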

How the data were processed

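Gene expression was measured on Affymetrix arrays in 8 eWAT and 8 liver samples, 4 F1 and 4 CT of each. The deposited log2 expression values were made by the authors with RMA, and Transcriptome Analysis Console 4.0 was used, per the submitters' processing notes. Background correction, a shared distribution and a summary of each probe set are the steps of RMA. A genome build for the probe sets is not given in the sources used here. Arrays have no read depth, so their number limits the precision. The scale ends at 19.93, and differences near it are compressed.

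Of 22206 probe sets, 19572 had 1 gene symbol in the platform's annotation, and the other 2634 had none or several and were left out. The 19572 probe sets covered 19505 symbols, with the brightest probe set kept for each. Genes with an eWAT mean under the 25th percentile of all values (3.47) were left out as dim, which kept 14777. Of 428 entries in 30 gene lists, 58 matched no symbol. The members, lists and named genes were chosen with earlier results of these data known.

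High- and low-albumin samples were compared by sample values, overlap and the difference of medians. F1 was compared with CT in the 8 eWAT samples with limma 3.58.1 in R 4.3.3 (lmFit, eBayes, Benjamini-Hochberg over all kept genes, threshold 0.05), and the fit was tested on simulated data. Signal as a percent of liver was the linear value minus the low-albumin median, over the liver median. Promoters were 250 bases before each start in RefSeq GRCm38.p6, and motifs were sought on both strands.

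Named genes were fixed anchors of liver and fat, up to 4 members per list with the largest difference, the 12 largest differences per direction without overlap, and the 10 nearest to Alb. Numbered gene models, olfactory and vomeronasal receptors, microRNAs and snoRNAs were skipped. Further genes, such as Selenop, Apoe, Saa2, Cyp7a1, Cyp2f2, Apoc1 and those that went against their list, were chosen after their values were seen. F1 and CT samples with the same replicate number did not deviate together throughout (r = 0.143, -0.228, -0.307 and 0.213 across genes for numbers 1 to 4). The signs of these values follow the Alb division, so they say little about pairs. Over the 13826 genes not 4-fold higher in liver, r was -0.051, -0.057, -0.032 and 0.0009 for numbers 1 to 4. The numbers were not taken as pairs. Alternatives covered the dim filter, quantile normalization, the fold, means, covariates, 1 fit of all 16 samples and leaving out each sample.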

Additional observations from a re-analysis of the deposited data

Results flagged for a closer look

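In each group of 4 eWAT samples, the gap between an extreme sample and its nearest neighbour was divided by the group's range and compared with Dixon's critical value for 4 samples. Of 366 groups tested, 24 passed (6.56%), and chance passes about 1 in 20. Of the hepatocyte genes tested, none was among the 24.

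F1 1, a low-albumin sample, stood apart in Svs4 (14.01), Svs5 (14.51) and Pate4 (11.20), male tract genes that were at 2.31 to 4.55 in the other F1 samples. It was also high in Adipoq (19.24), in the brown fat list median (6.89) and in Sis (4.97), an intestinal gene, and low in Cebpb (8.50).

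CT 4, a high-albumin sample, stood apart in the germ cell list median (9.34), Prm1 (11.56), Prm2 (11.40) and Smcp (9.25), and in Mpeg1 (13.08), a macrophage gene. It was the lowest CT sample for Slc2a4 (11.59) and for the male tract list median (2.865).

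CT 2 was the lowest CT sample for Nnat (17.68), Ebf2 (11.75), Dpp4 (9.87) and the adipogenic transcription factor list median (11.99). CT 3 was lowest for Adipoq (18.95), and CT 1 was highest for Cd79a (5.37). F1 2 was lowest for Cela1 (5.16) and highest for Tnni2 (4.09), F1 3 was lowest for Smcp (3.22), and F1 4 was highest for Acta1 (11.04).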

How the results depend on the processing

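Under the alternatives, 96 recomputed summary values stayed near the value reported and 17 moved. Near meant within 1.5-fold for a count and within 1 SD of the samples for other values. A reversal was looked for only in the hepatocyte median between the sets, and none was found. The count of 215 genes carried higher was 114 with the dim filter at the median and 136 at 4-fold, both of which admit fewer genes by construction, and 361 without F1 1 and CT 4, a choice made after seeing the data. It was 217 to 299 when 1 sample was left out, and 195 of the 215 genes stayed in all 8 of those runs. Leaving out samples cannot make separated sets overlap, so a gene could leave only through its medians or the dim filter. With fewer samples the rule of no overlap is also easier to meet, which raises the counts in both directions by construction. The 13 genes carried lower became 1 with the stricter filter, 0 at 4-fold, 86 at 1.5-fold, 38 without F1 1 and CT 4 and 14 to 24 without 1 sample. The hepatocyte median of 2.32 ranged from 1.96 to 2.70 and the fat median from -0.075 to -0.01 without 1 sample.

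For F1 against CT, limma called 0 genes, 25 in 1 fit of all 16 samples, and 0 to 1 without 1 sample (Hoxd3os1 without CT 4, Ccnjl without F1 4; limma adjusted p = 0.037 and 0.0156). The 25 included Cyp2e1 and Apoc1, and the cause was not tested. The hepatocyte median of 1.18 was 0.676 to 1.69 without 1 sample and 1.99 without both F1 1 and CT 4. With the replicate block, the samples sharing only a number, 0 genes were called. In that fit 25 hepatocyte genes (14.3%) had an unadjusted limma p under 0.05, all higher in F1. Of all 14777 kept genes, 672 were higher and 705 lower at that p. Without the block 15 hepatocyte genes (8.57%) did, all higher, beside 4.97% of all kept genes higher and 5.02% lower. Arrays have no read depth, and their number limits the precision.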

Other observations

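A few genes that were not high in liver were high in F1 1 as well as in some high-albumin samples. These genes were picked after their values were seen and are given as values. Dcdc2a, which acts at the primary cilium, was 10.06, 10.04, 8.30 and 6.86 in F1 2, F1 4, CT 3 and CT 4, against 9.99, 3.62, 3.91 and 5.59 in F1 1, F1 3, CT 1 and CT 2. Hydin, a protein of the motile cilium's central apparatus, was 5.73, 5.55, 3.70 and 6.39 in the high-albumin samples and 5.60, 3.31, 3.56 and 2.81 in the low-albumin samples. Rsph4a, a radial spoke protein of motile cilia, was 9.07, 6.62, 7.03 and 5.44 in the high set and 8.84, 4.39, 4.26 and 4.40 in the low set. In all 3 genes F1 1 was close to F1 2, and F1 3, CT 1 and CT 2 were lower than F1 1. Of the high-albumin samples, CT 3 also lay below F1 1 in all 3 genes, CT 4 did in Dcdc2a and Rsph4a, and F1 4 did in Hydin and Rsph4a.

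Mmp7 and Lcn2 are 2 further genes picked in this way. Mmp7, a matrix protease of glandular epithelium, was 8.18, 7.46, 5.21 and 4.89 in the high-albumin samples and 7.53, 3.56, 3.40 and 4.03 in the low-albumin samples. Lcn2, an iron-siderophore binding protein, was 10.62, 10.70, 9.23 and 9.56 in the high set and 10.61, 8.48, 7.98 and 8.06 in the low set. Their liver medians were 4.43 for Mmp7 and 6.46 for Lcn2. Because F1 1 broke the separation, none of these 5 genes was counted as carried. Cep126, another cilium gene and 1 of the 3 carried genes not higher in liver, was 6.53, 6.21, 5.66 and 6.90 in the high set and 5.37, 4.94, 5.22 and 4.99 in the low set. What set these levels was not tested.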
